A study of Mus musculus with 72 samples.

Results

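The antiviral effectors described here are 8 interferon-stimulated genes, namely Ifit1, Ifit2, Ifit3, Isg15, Rsad2, Oasl2, Ifi44 and Ifih1. They were taken as a named list, and every probe set that the array annotation gives to one of them was followed through 3 brain regions, 4 postnatal ages and 2 genotypes. They were chosen by their measured values in part, namely the higher Ifit3 value of Ts1Cje mice in the P84 cerebellum, so the P84 cerebellum is described below without a test. Of the 8 genes, 6 had a probe set of their own, and these 6 held 8 of the 45101 probe sets on the array. No probe set was annotated to Ifi44, which was not analysed here. The single probe set for Isg15 (1431591_s_at) is also annotated to the pseudogene Gm9706, so its values are given for that probe set and not for Isg15.

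Interferons are signalling proteins released by cells that sense viral nucleic acid. Type I interferon binds a receptor built from Ifnar1 and Ifnar2, which activates Jak kinases and a transcription factor complex that holds Irf9, and this complex binds an interferon-stimulated response element (ISRE) near its target genes. The products of those targets hinder viruses at several steps. Ifit proteins bind viral RNA, Isg15 is a ubiquitin-like protein attached to other proteins, Rsad2 (viperin) makes a chain-terminating nucleotide, and Ifih1 (Mda5) senses long double-stranded RNA. Oasl2 belongs to the oligoadenylate synthetase family. In brain, microglia, astrocytes, endothelium and neurons can all express such genes after interferon.

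Total RNA of 3 brain regions (cerebral cortex, hippocampus and cerebellum) was taken from Ts1Cje mice and from disomic littermates and hybridised to 72 Affymetrix Mouse Genome arrays, in 24 groups of 3 arrays. Ages were P1, P15, P30 and P84, where P is the postnatal day, and no mouse was treated. By the study's methods the 3 regions at each age came from the same mice, 3 Ts1Cje and 3 disomic. Ts1Cje mice, bred from Ts1Cje males and C57BL/6 females and typed by the neomycin marker, carry an additional copy of the segment of chromosome 16 between Sod1 and Zbtb21 (formerly Znf295), which includes Ifnar1 and Ifnar2. The segment is translocated onto chromosome 12, 1 copy of Sod1 is not functional, and a few genes at the end of chromosome 12 are lost. The labels give the strain of the disomic littermates as C57BL/6. None of the 8 effectors lies on chromosome 16. Ifit1, Ifit2 and Ifit3 lie on chromosome 19, Rsad2 on 12, Oasl2 on 5, Isg15 on 4, Ifi44 on 3 and Ifih1 on 2. Rsad2 is not among the lost chromosome 12 genes that the study names.

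Values are the deposited gcRMA values on a log2 scale, and a difference of 1 is a doubling. Some arrays stood apart. On 3 disomic arrays, replicate 3 of the P1 cerebellum, the P84 cortex and the P84 hippocampus, the upper quartile of all values was 4.97 to 5.51, against 5.65 to 5.93 on the other 69 arrays. On an axis set by the genes that separate cerebellum from hippocampus, disomic replicate 3 of the P15 cerebellum lay at -0.02 and the other P15 cerebellum arrays lay at 1.03 or above. Disomic replicate 3 of the P15 hippocampus lay at 1.02 on this axis, and the other P15 hippocampus arrays lay at -0.02 or below. These 2 arrays therefore went against their region labels. The labels give all mice as female, yet the Y-linked gene Eif2s3y exceeded Xist on 69 of the 72 arrays, and Xist was the higher on the 3 arrays of Ts1Cje P1 replicate 3. In bulk tissue, fewer cells of a type and less RNA per cell cannot be told apart.

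RefSeq promoter windows of 300 bases (build GRCm38.p6), from 250 bases before to 50 after the start, were found for all 8 genes. They were searched on both strands for the ISRE core, that is GAAA, any 2 bases and GAAA again, or on the other strand TTTC, any 2 bases and TTTC. It was present in 5 of the 8 genes, and in 3.44% of all 32851 windows of this length. The stretches upstream of the start that hold it are shown because 4 of the effectors have such a match there, with the matched letters in capitals and each written 5′ to 3′ along the gene.
Ifit1: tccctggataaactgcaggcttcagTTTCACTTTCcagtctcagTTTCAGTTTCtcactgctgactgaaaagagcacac
Ifit3: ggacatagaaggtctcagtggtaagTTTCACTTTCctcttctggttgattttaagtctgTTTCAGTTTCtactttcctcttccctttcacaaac
Isg15: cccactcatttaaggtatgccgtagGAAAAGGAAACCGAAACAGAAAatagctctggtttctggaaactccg
Rsad2: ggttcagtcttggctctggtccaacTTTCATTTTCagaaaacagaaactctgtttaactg

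The Ifit1 stretch is chr19:34640760-34640838 on the plus strand, with 2 matches. The Ifit3 stretch is chr19:34583348-34583441 on the plus strand, also with 2 matches, and both genes carry the same pair of matched words, TTTCACTTTC and TTTCAGTTTC. The Isg15 stretch is chr4:156200850-156200921 on the minus strand and holds 3 overlapping matches in 1 run. The Rsad2 stretch is chr12:26456538-26456597 on the minus strand, with 1 match. Ifih1 had 1 match, downstream of its start, and no match to these letters was found in the windows of Ifit2, Oasl2 and Ifi44. The palindromic word TTCNNNGAA, the letters of an interferon-gamma activated site, was present in 1 Ifit2 window alone among the members and in 8.3% of all windows. A match is a description of the letters, not of a bound factor. The upstream stretch of Ifit3b, a neighbouring gene copy, had the same 94 bases as that of Ifit3, and the annotation gives no probe set to Ifit3b. Whether Ifit3b transcripts also bind the Ifit3 probe set was not tested.

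Most of these genes gave low signals. The median of all values was 3.25, and a value under its array's median was not shown to be above background. Ifit3 was the highest of the members' probe sets, with a mean of 4.26 and values above the array's median on 61 of 72 arrays. Ifit2 (mean 3.37) passed the array's median on 47 arrays and Ifih1 (mean 2.97) on 18. Rsad2 passed it on 5 arrays at its highest probe set, 1436058_at, and on 0 arrays at 1421008_at and 1421009_at. Oasl2 passed it on 4 arrays and Ifit1 on 1. Levels of different probe sets depend on their probes and are not an order of RNA abundance. The highest group mean of Ifit1, Ifit3, Oasl2 and Rsad2 at 1436058_at belonged to the Ts1Cje P84 cerebellum, and that of Ifit2 and Ifih1 to the Ts1Cje P84 cortex.

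**Figure D1:**
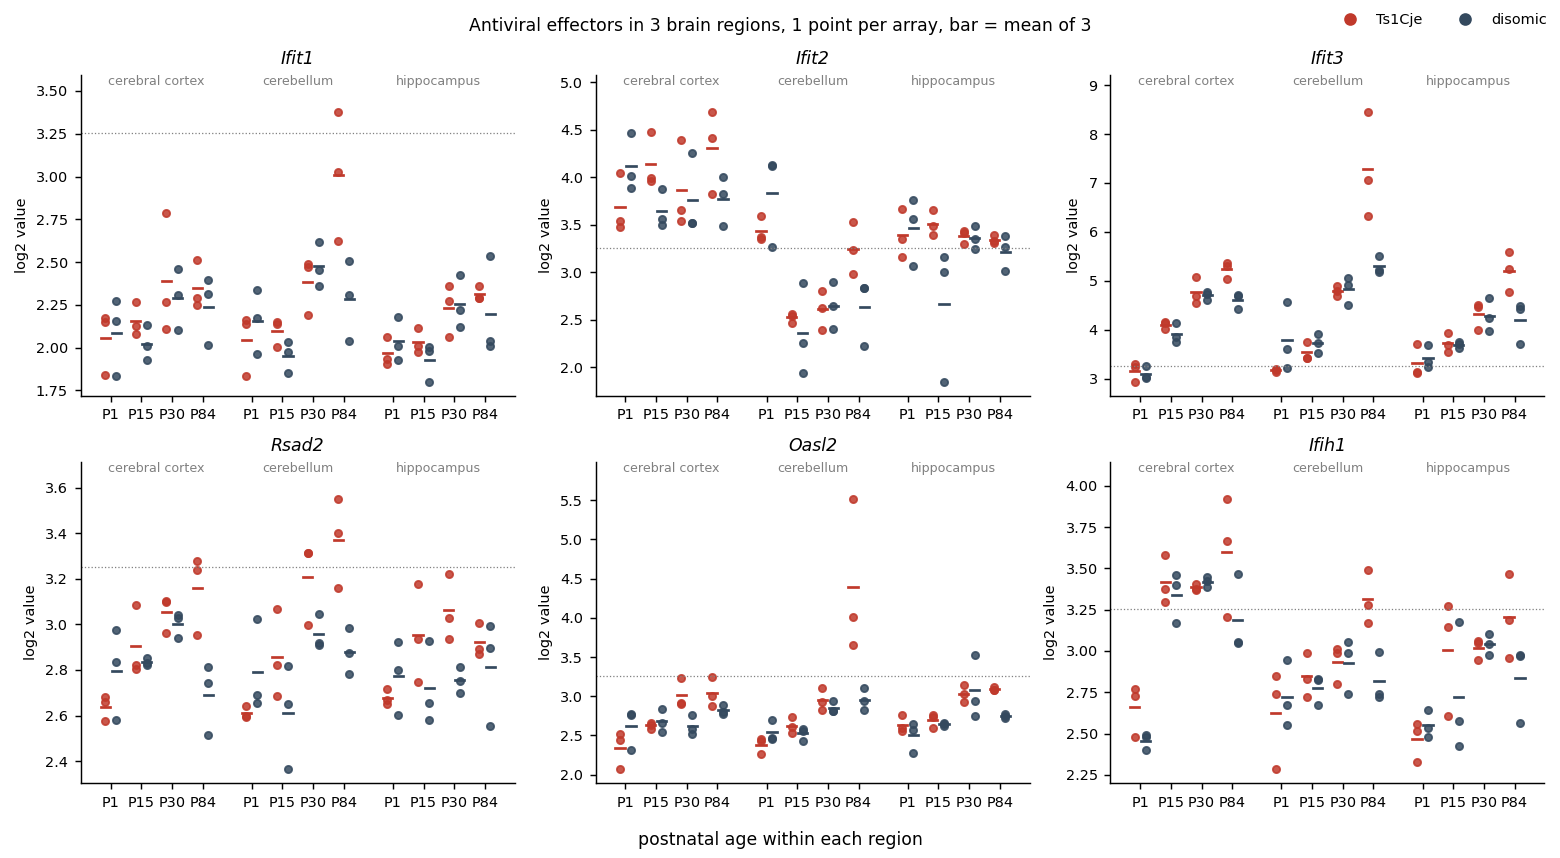
Log2 values of the 6 effectors with a probe set of their own, by region and postnatal age, with Ts1Cje arrays left (red) and disomic arrays right (dark) at each age, 1 point per array and a bar at the mean of 3; the dotted line is the median of all values, 3.25. Ifit3 and Oasl2 of the Ts1Cje P84 cerebellum stand above every other group, and Ifit2 is low in the cerebellum from P15.

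In the P84 cerebellum, all effectors measured had higher values in Ts1Cje than in disomic mice. Ifit3 had 6.33, 8.45 and 7.06 in Ts1Cje mice, against 5.51, 5.18 and 5.22 in disomic mice. The means were 7.28 ± 1.08 and 5.31 ± 0.18 (SD, n = 3 each), a difference of 1.97 or 3.93-fold. The disomic values lay close together and the Ts1Cje values were spread over more than 2 log2 units, with replicate 2 the highest. Without Ts1Cje replicate 2 the difference was 1.39, or 2.62-fold.

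Oasl2 had 3.65, 5.51 and 4.02 in Ts1Cje cerebella at P84, against 3.11, 2.82 and 2.93 in disomic cerebella. The difference was 1.44 (2.71-fold), and 0.88 (1.84-fold) without Ts1Cje replicate 2. All 3 Ts1Cje values exceeded the array median, whereas the disomic values lay under it, so the disomic level was not shown to be above background. Ifit1, which recognises viral RNA caps, had 2.62, 3.38 and 3.03 in Ts1Cje cerebella and 2.51, 2.31 and 2.04 in disomic cerebella. Replicate 2 was again the highest of the Ts1Cje arrays and the groups did not overlap, although 5 of the 6 values were under 3.25.

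The other members differed by less. Ifit2 had 2.98, 3.53 and 3.24 in Ts1Cje cerebella and 2.22, 2.83 and 2.84 in disomic cerebella. Ifih1 had 3.28, 3.17 and 3.49 in Ts1Cje cerebella and 3.00, 2.72 and 2.74 in disomic cerebella, with replicate 2 the lowest Ts1Cje array. Rsad2 at 1436058_at had 3.16, 3.40 and 3.55 in Ts1Cje cerebella and 2.87, 2.78 and 2.99 in disomic cerebella. Its 2 dimmer probe sets differed in the same direction, by 0.26 and 0.39. The probe set annotated to Isg15 and Gm9706 had 4.09, 4.51 and 3.53 in Ts1Cje cerebella, against 3.48, 3.22 and 3.48 in disomic cerebella. In these genes too no Ts1Cje array fell to the level of a disomic array.

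At all 8 probe sets of the members in the P84 cerebellum the lowest Ts1Cje array thus exceeded the highest disomic array, an arrangement found at 4.65% of all probe sets on the array. The median difference over 1 probe set per gene was 0.67, and 0.56 over all 8. Since this contrast was used to choose the genes, nothing is read from this count.

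**Figure D2:**
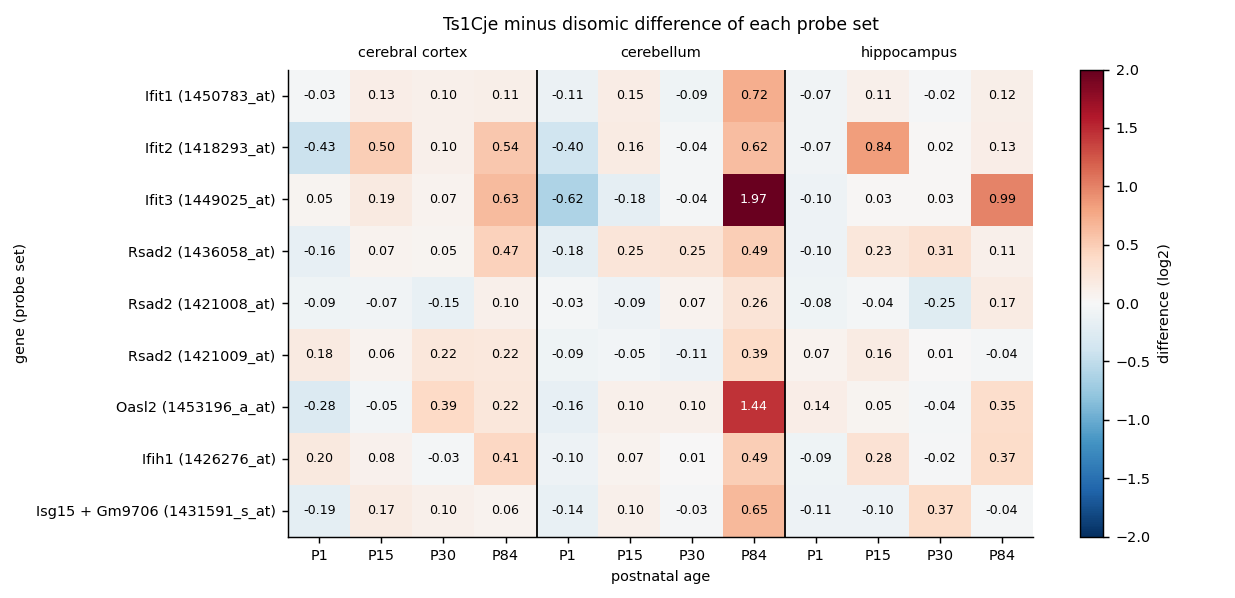
Ts1Cje minus disomic difference (log2, colour and printed value) of each probe set in 12 comparisons, with regions side by side and ages from P1 to P84 within each. The P84 cerebellum column is positive throughout, up to 1.97 for Ifit3, and the P1 cerebellum column is negative throughout.

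The comparisons that the choice of genes did not use were the other 11 pairs of groups. Across them, 0 of 88 tests of the members' probe sets met both criteria for a call (moderated t of at least 4 and adjusted p of at most 0.05), against 0.0718% of all tests on the array. At P84 the effectors were nevertheless mostly higher in Ts1Cje forebrain. In the P84 cortex all 8 differences were positive, with a median of 0.31, against 0.03 over all probe sets. An unadjusted p under 0.05 was reached by 4 of the 8 probe sets there, against 7.9% of all probe sets, and 0 of the 8 were called (0.0443% of all).

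Ifit3 had 5.37, 5.30 and 5.04 in Ts1Cje cortex at P84, against 4.68, 4.71 and 4.43 in disomic cortex. The groups did not overlap, but the difference of 0.63 ± 0.28 (SE) did not pass (limma adjusted p = 0.589). Rsad2 at 1436058_at had 3.28, 3.24 and 2.96 in Ts1Cje cortex and 2.81, 2.74 and 2.51 in disomic cortex, a difference of 0.47 ± 0.13 (SE, limma adjusted p = 0.265). Ifih1 had 3.20, 3.67 and 3.92 in Ts1Cje cortex and 3.05, 3.47 and 3.05 in disomic cortex, so its groups overlapped. Ifit2 overlapped likewise, with 3.82, 4.41 and 4.69 in Ts1Cje cortex and 3.82, 4.01 and 3.49 in disomic cortex. Disomic replicate 3, a dim array, held the lowest disomic value of Ifit3, Ifit2 and Rsad2. Without the dim arrays the differences were 0.55 for Ifit3 and 0.38 for Rsad2.

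In the P84 hippocampus 7 of the 8 differences were positive, with a median of 0.15, against -0.01 over all probe sets. None of the 8 was called (0.071% of all probe sets), and 2 reached an unadjusted p under 0.05, against 7.68% of all. Ifit3 had 4.77, 5.58 and 5.24 in Ts1Cje hippocampus, against 4.48, 3.71 and 4.42 in disomic hippocampus. The groups did not overlap, and the difference of 0.99 ± 0.28 (SE) gave a limma adjusted p of 0.317. Without the dim arrays it was 1.10, with a limma adjusted p of 0.14. Oasl2 had 3.08, 3.08 and 3.12 in Ts1Cje hippocampus and 2.73, 2.74 and 2.77 in disomic hippocampus, 2 tight groups that did not overlap, all of them under 3.25. Ifih1 had 3.19, 2.96 and 3.46 in Ts1Cje hippocampus and 2.97, 2.97 and 2.56 in disomic hippocampus, which overlapped.

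All 3 Ts1Cje arrays exceeded all 3 disomic arrays at 3 of 8 probe sets in the P84 cortex, those of Ifit3 and 2 of Rsad2, against 6.68% of all probe sets. In the P84 hippocampus this held for 2 of 8, Ifit3 and Oasl2, against 8.53% of all.

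The earlier ages gave small differences of either sign. In the P1 cerebellum all 8 differences were negative, with a median of -0.14, and none was called (0.494% of all probe sets). Ifit3 had 3.20, 3.14 and 3.17 in Ts1Cje cerebellum at P1, against 3.61, 3.21 and 4.56 in disomic cerebellum. The Ts1Cje values lay together below the disomic ones, as did those of Rsad2 and Oasl2, so 3 of the 8 probe sets did not overlap in this direction (3.67% of all). The highest value of Ifit3, 4.56, belonged to the dim array, and the difference of -0.62 was -0.24 without it. In the P15 hippocampus Ifit2 had 3.48, 3.39 and 3.66 in Ts1Cje mice, against 3.16, 3.00 and 1.85 in disomic mice. The value of 1.85 came from the array that lay on the cerebellar side of the axis, and the difference of 0.84 was 0.43 without the 2 displaced arrays. Neither difference passed the test, with limma adjusted p of 0.229 for Ifit3 and 0.302 for Ifit2. In the P15 hippocampus and the other comparisons at P1, P15 and P30 the medians over the 8 probe sets lay between -0.08 and 0.13.

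Averaged over ages, the genotype difference was called for 0 of the 8 probe sets in the cortex and the hippocampus over 4 ages and in the cerebellum over P1 to P30, against 0.182% of all tests. An unadjusted p under 0.05 was reached by 2, 1 and 0 of the 8, in that order. The change of the genotype difference with age was tested in the forebrain, as the difference at P84 minus its mean over P1 to P30. All 8 estimates were positive in the cortex, with a median of 0.26, and 5 of 8 were positive in the hippocampus, with a median of 0.21. For Ifit3 the change was 0.53 ± 0.32 (SE, limma adjusted p = 0.989) in the cortex and 1.01 ± 0.32 (SE, limma adjusted p = 0.375) in the hippocampus. The P84 difference in the hippocampus minus that in the cortex was 0.36 ± 0.39 (SE) for Ifit3, with a limma adjusted p of 0.828. None of these 24 tests was called, against 0.00222% over the array, and 1, 2 and 0 of the 8 probe sets reached an unadjusted p under 0.05 in the 3 contrasts.

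In disomic mice most effectors had higher values at P30 than at P15. All 8 differences between these ages were positive in the cerebellum (median 0.30, with 3 at an unadjusted p under 0.05, against 18.4% of all probe sets). In the hippocampus 7 of 8 were positive (median 0.32, with 4 at an unadjusted p under 0.05, against 9.69% of all), and in the cortex 6 of 8 (median 0.12, with 1 against 7.1%). Ifit3 gave mean values of 3.10, 3.91, 4.71 and 4.61 in the cortex at P1, P15, P30 and P84. In the disomic cerebellum its means were 3.79, 3.72, 4.83 and 5.31 at these ages, and in the hippocampus 3.42, 3.70, 4.29 and 4.21. Ifit3 was thus lowest at the early ages and higher from P30 in every region. Between P15 and P30 it rose by 1.11 ± 0.28 (SE) in the disomic cerebellum (limma adjusted p = 0.00725), where 2.6% of all probe sets were called. The P15 arrays read 3.72, 3.53 and 3.90 and the P30 arrays 4.92, 5.06 and 4.51. This call rested on a moderated t of 4.03 and was lost without the 2 displaced arrays, where the difference gave a limma adjusted p of 0.0134. It was also lost without disomic replicate 1 (difference 1.07), disomic replicate 2 (0.90) or Ts1Cje replicate 3 (1.11), and in the fits with a replicate block.

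Ifit2 was highest at P1 in the disomic cerebellum. It had 3.26, 4.13 and 4.12 in the disomic cerebellum at P1 and 2.25, 1.94 and 2.89 at P15, with no overlap. It fell by 1.47 ± 0.26 on the log2 scale (SE, limma adjusted p = 1.11e-05, with 13.1% of all probe sets called), and by 1.74 without the displaced arrays, of which one held the value of 2.89. Without disomic replicate 2 the change was -1.12 and the call was lost. Its mean stayed at 2.65 at P30 and 2.63 at P84, below the median of all values, while its cortical means lay between 3.65 and 4.12 at all 4 ages.

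Ifih1, the sensor of this group, had 2.48, 2.40 and 2.49 in the disomic cortex at P1 and 3.17, 3.40 and 3.46 at P15. It rose by 0.88 ± 0.16 (SE, limma adjusted p = 1.75e-05, with 15.7% of all probe sets called), and kept the call under every alternative that was run. The P1 values lay under the array median and were not shown to be above background, so the size of the rise may be understated. Together these are 3 calls among 64 tests of age, of Ifit3, Ifit2 and Ifih1, against 5.6% of all tests of age on the array, so the members changed with age about as often as probe sets in general.

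Between regions of disomic mice, Ifit2 was the only member called under both criteria. At P15 the cerebellum, with 2.25, 1.94 and 2.89, lay below the cortex, with 3.56, 3.87 and 3.50. The difference was -1.28 ± 0.26 (SE, limma adjusted p = 0.000428, with 4.92% of all probe sets called), and -1.55 without the displaced arrays. At P30 the cerebellum had 2.89, 2.65 and 2.40 and the cortex 3.52, 3.52 and 4.26, a difference of -1.12 ± 0.26 (SE, limma adjusted p = 0.000952, with 10.3% called). Without disomic replicate 2 the P15 difference was -0.96 and the P30 difference -1.24, and neither was called. The P30 difference was -0.75 without disomic replicate 3 and was then not called either. These 2 calls were the only ones among 80 tests between regions, against 4.57% over the array.

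The members were compared with each other over the 24 group means, which include the Ts1Cje P84 cerebellum that served to choose them. Pearson's r, given as a description over groups that share arrays, was 0.92 between Ifit1 and Ifit3, 0.90 between Ifit3 and Oasl2 and 0.89 between Ifit1 and Oasl2. Over the 23 groups without the Ts1Cje P84 cerebellum these were 0.84, 0.82 and 0.72. The disomic P84 cerebellum, also part of the contrast used for the choice, stayed among the 23. Rsad2 at 1436058_at gave 0.76 to 0.80 with these 3 genes, and 0.66 to 0.71 over the 23 groups. Ifit2 gave between -0.07 and 0.35 with the other members, and between -0.05 and 0.37 over the 23 groups. Within groups, that is over the deviations of 72 arrays from their group means, r between Ifit3 and Oasl2 was 0.55. It was 0.07 over the 66 arrays outside the P84 cerebellum. Between Ifit1 and Ifit3 it was 0.35 over all arrays and 0.10 over these 66.

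Among 12636 other genes with a group mean above 3.25, those whose 24 group means were most like the mean standardised profile of the members were Trim30a (r = 0.92), Igtp (0.92), Gbp2 (0.92), Lgals3bp (0.90), Gbp3 (0.87), Rtp4 (0.87), Usp18 (0.85) and Hddc3 (0.85). Trim30a is a tripartite motif protein, Igtp and the Gbp proteins are interferon-inducible GTPases, and Usp18 removes Isg15 from its targets. Over the within-group deviations of the 72 arrays the order was Usp18 (0.61), Irgm1 (0.60), Homez (0.57), Trim30a (0.57), Apol8 (0.57), Serinc3 (0.56), Rtp4 (0.53) and Tomm20 (0.53). Both orders draw on the P84 cerebellum and so in part restate the choice of the members. The 23 groups without the Ts1Cje P84 cerebellum still hold its disomic counterpart, which is part of the contrast used for the choice. Over these 23 group means the 8 genes most like the members began with Hddc3 (0.91), Gbp2 (0.91), Igtp (0.90) and Trim30a (0.89). The rest of the 8 were Nat9 (0.86), Lgals3bp (0.86), Mansc1 (0.85) and Cd52 (0.85). Trim30a, Igtp, Gbp2, Lgals3bp and Hddc3 thus stood in both lists of group means, while Gbp3 fell to place 38 and Rtp4 to place 76, and Usp18 no longer had a group mean above 3.25. Over the deviations of the 66 arrays outside the P84 cerebellum Myh7 (0.64), Slc19a2 (0.63), Ephx2 (0.62) and Apol8 (0.62) came first, and Apol8 and Serinc3 stood in both lists of deviations.

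The rest of the interferon pathway was followed with 9 lists of 87 genes, of which 80 had a probe set of their own. In the P84 cerebellum, again as a description, 63 of these 80 genes had a higher mean in Ts1Cje than in disomic mice, with a median difference of 0.23, against 47.6% and -0.01 over all 18194 genes. A difference of at least 1, that is a doubling, was found for 12 of the 80, and 0 of the 80 were lower by as much. Of all genes, 0.159% or 29 had a difference of at least 1. This threshold of size was set after the values were seen, and nothing is read from the count, since the contrast served to choose the effectors.

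Of the ligands, 1 of 5 measured interferon genes had a positive difference and none was doubled. Ifnb1, encoding interferon beta, averaged 2.56 in Ts1Cje and 2.74 in disomic cerebella. All 5 ligand genes lay under the array median on every P84 cerebellum array, so none was shown to be above background. Among 6 receptor genes the triplicated Ifnar2 was doubled in the P84 cerebellum, with 6.30, 6.27 and 6.38 in Ts1Cje mice and 5.06, 4.91 and 4.90 in disomic mice. It differed evenly over the 3 Ts1Cje arrays, unlike Ifit3 and Oasl2. These values, like those of the other receptor genes, are from 1 probe set per gene, that with the highest mean. The other triplicated receptor genes were higher too, Ifnar1 by 0.99 without overlap, Ifngr2 by 0.96 and Il10rb by 0.45, both with overlap. The Ifnar2 and Ifngr2 probe sets that the study lists gave smaller differences in the P84 cerebellum than those given here. Ifngr1 and Ifnlr1 differed by -0.13 and -0.16. At 1 probe set per gene, Ifnar2 was the single listed gene called outside the P84 cerebellum in this fit. It was higher by 1.42 in the P84 cortex (limma adjusted p = 0.0151), 1.57 in the P84 hippocampus (0.00237) and 1.25 in the P1 cerebellum (0.0146). Of all genes, 0.0605%, 0.0934% and 0.533% were called higher in these comparisons. In these 3 comparisons no member was called. The study's own analysis, over all probe sets, also called other listed genes outside the P84 cerebellum. Among them were Ifnar1 (P30 and P84 cortex, P15 hippocampus and P15 cerebellum) and Ifngr2 (P1 cerebellum).

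Irf9, a DNA-binding factor of the interferon response, was the 1 gene of 5 in the Jak-Stat list with a difference of at least 1 in the P84 cerebellum. It had 4.72, 5.74 and 4.95 in Ts1Cje mice and 3.66, 3.66 and 3.61 in disomic mice. The kinases Jak1, Jak2 and Tyk2 and the factor Stat2 had differences of -0.34 to -0.04. Of 12 sensors and adaptors none was doubled, although 9 differences were positive, among them that of Irf7, a factor that amplifies interferon production, with 2.99 ± 0.14 in Ts1Cje and 2.61 ± 0.17 in disomic cerebella (SD, n = 3 each). Usp18 had a difference of 1.00, with 3.64 ± 0.45 in Ts1Cje and 2.63 ± 0.16 in disomic cerebella (SD, n = 3 each), as 1 of 5 genes of Isg15 conjugation.

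Of the 7 interferon-induced GTPases, which attack the vacuoles of pathogens, all had positive differences in the P84 cerebellum (median 1.13) and 4 were at least doubled, namely Igtp, Irgm1, Gbp3 and Gbp6. Gbp6 had 3.97, 5.50 and 5.84 in Ts1Cje mice, against 3.32, 2.78 and 3.27 in disomic mice. Among 26 other antiviral effectors 24 differences were positive and 5 genes were at least doubled, namely Ifi27, Ifi27l2a, Rtp4, Lgals3bp and Parp12. Rtp4 lies on chromosome 16 outside the triplicated segment. Mx1 and Mx2, antiviral GTPases inside the segment, had differences of 0.12 and 0.06 at levels under the array median. The 9 genes of antigen presentation all had positive differences (median 0.27), and 4 of 5 chemokine genes did, with none doubled.

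Among the 3 Ts1Cje arrays of the P84 cerebellum, replicate 2 was the highest for 4 of the 6 members and replicate 3 for the other 2. Over all 80 pathway genes replicate 1 was the highest for 17, replicate 2 for 35 and replicate 3 for 28. For the 12 genes with a difference of at least 1, picked on these same arrays, replicate 2 was the highest for 9 and replicate 3 for 3. Without replicate 2 the median difference was 0.55 over the members and 0.19 over the 80 genes, compared with 0.67 and 0.23 over all arrays. Over the 9 lists in the P84 cortex 50 of 80 differences were positive (median 0.13), and in the P84 hippocampus 54 of 80 (median 0.11), with 57.0% and 50.5% of all genes positive.

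**Figure D3:**
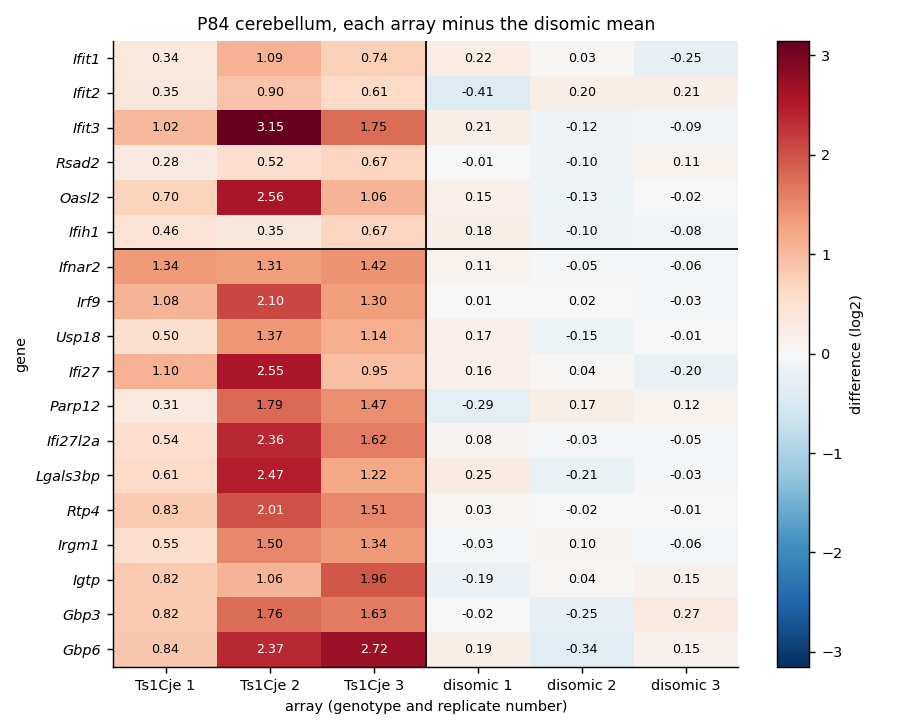
P84 cerebellum arrays, each value minus the mean of the disomic arrays (log2, colour and printed value), for 6 effectors above the line and the 12 pathway genes with a difference of at least 1 below it, with 3 Ts1Cje arrays left of 3 disomic arrays. Ts1Cje replicate 2 is highest for Ifit3, Oasl2 and most others, whereas Ifnar2 is even over the 3 Ts1Cje arrays.

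**Figure D4:**
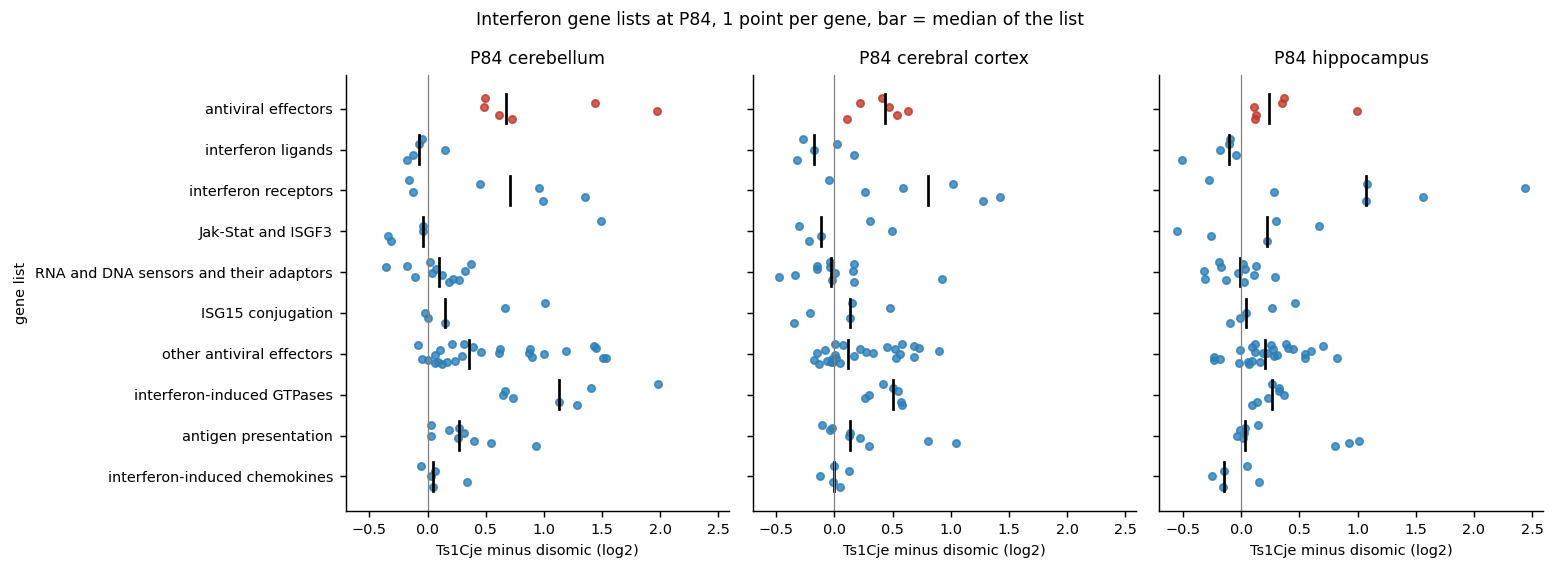
Ts1Cje minus disomic difference (log2) at P84 for the antiviral effectors (red, top row) and 9 interferon gene lists (blue), in the cerebellum, cortex and hippocampus, 1 point per gene and a bar at the list's median. The GTPases have a median of 1.13 in the cerebellum, and the median of the ligands lies below 0 in the 3 regions. The ligand genes were under the array median on every P84 cerebellum array.

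Markers of cell types that could hold or carry these transcripts were compared on the same P84 cerebellum arrays, as the mean over each list. Markers of microglia, the brain's macrophages, ranged over 3.90 to 4.09 in Ts1Cje mice and 3.79 to 3.96 in disomic mice, and the 2 groups overlapped. Of 8 microglial genes 6 had a positive difference, namely Csf1r (0.50), C1qa (0.44), Aif1 (0.29), Cx3cr1 (0.12), Tmem119 (0.10) and P2ry12 (0.07). Itgam differed by -0.04 and Fcrls by -0.27. Meningeal markers, with 4 of 5 differences positive, lay at 3.83 to 4.09 in Ts1Cje and 3.55 to 3.70 in disomic cerebella and did not overlap. In that list Dcn, a fibroblast proteoglycan, differed by 0.95, the most of the 5 genes. Slc13a4 differed by 0.31, Lum by 0.22, Col1a1 by 0.10 and Col1a2 by -0.02. Astrocyte markers, with all 5 differences negative, lay at 9.79 to 9.89 in Ts1Cje and 10.09 to 10.17 in disomic cerebella, likewise without overlap, and Gfap differed by -0.72. Ependymal markers lay at 2.94 to 3.09 in Ts1Cje and 2.86 to 2.89 in disomic cerebella, under the array median. Markers of perivascular macrophages lay at 2.78 to 2.92 in Ts1Cje and 2.92 to 3.02 in disomic cerebella, also under the array median. Endothelial markers lay at 4.61 to 4.81 in Ts1Cje and 4.63 to 4.80 in disomic cerebella. Choroid plexus markers lay at 3.26 to 3.76 in Ts1Cje and 3.40 to 3.75 in disomic cerebella, and both lists overlapped. Markers of T and NK cells stayed at 2.57 in Ts1Cje and 2.57 to 2.62 in disomic cerebella, under the array median. The part of the microglial, meningeal, ependymal, perivascular macrophage and astrocyte differences in the members' values was not tested. Cerebellar markers lay at 12.35 to 12.48 in Ts1Cje and 12.35 to 12.62 in disomic cerebella, as the tissue labels say, while forebrain markers reached 3.47 at most in Ts1Cje and 2.86 in disomic cerebella.

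In the P84 hippocampus microglial markers lay at 5.62 to 5.96 in Ts1Cje and 5.42 to 5.64 in disomic mice, and markers of cerebellum at 4.52 to 5.81 in Ts1Cje and 5.12 to 6.07 in disomic mice. In the P84 cortex microglial markers lay at 5.51 to 5.70 in Ts1Cje and 5.47 to 5.71 in disomic mice. Their part in the members' differences was not tested either.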

How the data were processed

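RNA was labelled and hybridised to Affymetrix Mouse Genome arrays, 3 arrays per genotype, region and age. The deposited values are log2 values that the authors obtained by gcRMA, which corrects probes for background by base composition, normalizes arrays and summarises 1 value per probe set. GCRMA is named in the submitters' processing notes without a version. The values were used as deposited, without a filter. Genes were named from the platform annotation, with 1 symbol for 34958 probe sets, several for 932 and none for 9211. Where 1 value per gene was needed, the probe set with the highest mean was taken.

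Differences were fitted over all 45101 probe sets with limma 3.58.1 in R 4.3.3 (a mean for each of 24 groups, with 48 residual degrees of freedom). After the study's methods, calls needed an absolute moderated t of 4 or more together with an adjusted p (Benjamini-Hochberg, per contrast) not above 0.05. Members were named as a whole, other genes where they belonged to a described list or were among the 8 most like the members. The members and lists were chosen with earlier results of these data known. The fit was tested on simulated data. Arrays give no count of molecules, and 3 arrays per group limit the precision. Each array holds 1 region of 1 mouse. The p-values rest on the spread between arrays within groups, pooled over the 24 groups. That spread holds differences between mice and also those of the dim and displaced arrays. The regions share mice, but the fit treats arrays as independent, and a random block for the mouse is among the alternatives. Alternatives are given at the end, and those that left out the arrays with Xist above Eif2s3y, or all 5 doubted arrays, were added after seeing the data.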

Additional observations from a re-analysis of the deposited data

Results flagged for a closer look

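For 3 members the Ts1Cje arrays all lay below the disomic arrays in the P1 cerebellum and all above them in the P84 cerebellum. The genotype difference of Ifit3 was 1.97 at P84 and -0.62 at P1, and they differed by 2.60. For Oasl2 the differences were 1.44 at P84 and -0.16 at P1, which differed by 1.60, and for Rsad2 at 1436058_at 0.49 and -0.18, which differed by 0.67. The change with age was not tested, since the P84 cerebellum was used to choose the genes. The disomic P1 group holds a dim array, which had the highest P1 value of Ifit3. The Ts1Cje P1 group holds an array, replicate 3, with Xist above Eif2s3y, and the disomic P1 group holds none.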

How the results depend on the processing

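Under up to 19 other settings the count of called member probe sets stayed at 0 in the 11 genotype comparisons outside the P84 cerebellum, in the region averages and in the tests of change with age. With the adjusted p of 0.05 alone, 6 age tests and 7 region tests were called, against 3 and 2 with both criteria. Leaving out 1 replicate number of 1 genotype at a time gave 1 to 3 calls for age and 1 to 3 for region, the lowest without disomic replicate 2 (both) and disomic replicate 3 (region). The P84 cerebellum median of 0.67 ranged over 0.55 to 0.84 in the same way. With a replicate block, fitted either per age or across ages, 2 age tests and 2 region tests were called, and the call of Ifit3 between P15 and P30 in the cerebellum was lost. Arrays of one number and both genotypes correlated at -0.26 to 0.70 over 36 pairs, with 23 above 0.1. The numbers were not taken as pairs, since not every pair passed 0.1 and no label ties a number to a litter. With the mouse as a random block over regions, taken by replicate number, 3 age tests and 2 region tests were called. Of 286 further values for 16 results of single members, 270 stayed as they were, called or not called. A call was lost in 14 and gained in 2, and 0 changed direction. Only the 3 age results and 2 region results had a call to lose, and most of the 270 were results that stayed uncalled. No member had a mean of at least 5, so that filter left no value, and a fit per region gives no region contrasts. Low signal limits Rsad2, Oasl2, Ifit1 and Ifih1, whose differences may be understated near background.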
